A study of Mus musculus with 12 samples.

Results

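The 8 genes described here were chosen by name as plasma cell genes that lie outside the immunoglobulin loci. They are Jchain, Mzb1, Prdm1, Irf4, Derl3, Tnfrsf17, Pou2af1 and Tnfrsf13b. All 8 were found among the 40760 genes of the deposited tables, each as 1 row, and all 8 were among the 17418 genes that passed the filter on low counts. They were measured by bulk RNA-seq in 12 libraries, 3 in each of 4 groups, made from Pdgfra+ (Cd140a+) cells that were sorted by flow cytometry from the lungs of young adult male C57BL/6 mice. The groups were WT mice given vehicle, Pear1-/- mice given vehicle, WT mice given bleomycin (bleo) and Pear1-/- mice given bleo, and the study asked how loss of Pear1 in lung mesenchymal cells bears on bleo-induced fibrosis. Bleo is a drug that breaks DNA and scars the lung when it is aerosolized into the airways. By the study's methods, lungs of this model were analysed 3 weeks after a single dose, chosen from a pair of doses, and which dose and how many mice stand behind a library are not given in the sources used here. The Pear1-/- allele is a knockout-first allele present in every cell of the mouse, with a gene-trap cassette between the sixth and the seventh exon.

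Plasma cells are the antibody-secreting end stage of B cells. When a B cell differentiates, the transcription factors Irf4 and Prdm1 (Blimp-1) shut down the B cell programme and open the secretory one, while Pou2af1 (OBF-1) acts with octamer-binding factors at immunoglobulin genes. Jchain encodes the joining chain that links IgA dimers and IgM pentamers, and Mzb1 and Derl3 encode proteins of the endoplasmic reticulum that help to fold immunoglobulin and to clear misfolded chains. Tnfrsf17 (BCMA) and Tnfrsf13b (TACI) are receptors for the survival factors BAFF and APRIL. In the lung, plasma cells that make IgA sit beneath the airway epithelium. Several of these genes are also used elsewhere, since Irf4 and Prdm1 are found in T cells and myeloid cells, and Pou2af1 and Tnfrsf13b in B cells.

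Between 6702948 and 10447101 reads were counted on genes per library. Pairs of libraries were compared by a chi-square statistic over genes divided by its degrees of freedom, where a value near 1 means no more than counting noise. Pairs within each bleo group gave at most 1.49 and pairs within Pear1-/- vehicle at most 4.82. WT vehicle replicates 1 and 3 gave 1.58 with each other, whereas replicate 2 gave 21.2 and 21.8 with them and only 1.73 to 2.67 with the libraries labelled Pear1-/- vehicle. WT vehicle replicate 2 therefore stood apart from its group, and the calls that rest on WT vehicle are given with and without it, gene by gene for the 8 genes and by counts for other gene lists. Levels are given as CPM, the count of a gene scaled to the TMM-normalized size of its library. Pear1 itself stood at 61.6 ± 3.17 CPM (mean ± SD, n = 3) with vehicle in WT, and the 3 vehicle libraries labelled Pear1-/- stood at 58.3 ± 2.75 CPM, a log2 fold change of -0.08 (edgeR, adjusted p = 0.49). After bleo, Pear1 was at 28.8 ± 1.64 CPM in WT and at 40.2 ± 1.73 CPM in the libraries labelled Pear1-/-, where it was thus higher (log2 fold change 0.48, adjusted p = 7.54e-05), which goes against the label. The counts of the targeted gene did not separate the vehicle groups, the part of the transcript left by the allele is not known from these files, and the genotypes below are those of the labels. Pdgfra, the sorted marker, was at 463 to 541 CPM in the vehicle libraries, 152 to 159 in WT bleo and 267 to 272 in Pear1-/- bleo. Ptprc, which encodes the leukocyte antigen CD45, was at 339 to 451 CPM in the vehicle libraries, 859 to 876 in WT bleo and 365 to 390 in Pear1-/- bleo.

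Of the 8 genes, 5 fell after bleo in WT, and Jchain and Tnfrsf17 fell in both genotypes whichever library was left out. The fall of Jchain was smaller in the libraries labelled Pear1-/- than in WT by the test of that difference given below. In WT bleo, Jchain, Tnfrsf17, Derl3, Mzb1 and Pou2af1 fell against WT vehicle, with mean CPM 11.3-fold lower for Jchain and, at the other end, a log2 fold change of -0.58 for Pou2af1. Irf4, Prdm1 and Tnfrsf13b did not pass the test in that comparison. In such bulk samples, fewer cells of a type and less RNA per cell cannot be told apart. Thus 5 of the 8 genes passed at an adjusted p under 0.05 (edgeR quasi-likelihood test, Benjamini-Hochberg over all 17418 genes), all of them lower, beside 67.9% of all genes tested that passed in either direction, 31.4% as higher and 36.5% as lower. The median log2 fold change of the 8 genes was -1.06, beside -0.07 over all genes tested. With WT vehicle replicate 2 left out, 7 of the 8 passed, as Prdm1 and Tnfrsf13b then passed as higher, beside 76.4% of all genes in that fit, 31.7% as higher and 44.7% as lower. The median of the 8 was then -0.67, beside -0.21 over all genes. So many genes passed here that a count near the background is no result about the 8, and the sizes per gene are given below.

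In the libraries labelled Pear1-/-, the same comparison of bleo with vehicle was then made. Tnfrsf17 fell 3.08-fold, Jchain and Derl3 both fell 2.17-fold and Mzb1 fell 1.64-fold in mean CPM. These 4 of 8 genes passed, all lower, beside 62.2% of all genes in either direction, 29.1% as higher and 33.1% as lower, and the median log2 fold change of the 8 was -0.56 beside -0.05 over all genes. Mzb1 (adjusted p = 0.0173) and Derl3 (adjusted p = 0.0315) lost the call when any 1 of the 6 libraries labelled Pear1-/- was left out, with adjusted p of up to 0.0637 and 0.101, and only Jchain and Tnfrsf17 then passed. Over the 12 fits that each left out a library, Derl3 passed in 3 and Mzb1 in 6. With WT vehicle replicate 2 left out, 7 of the 8 passed as lower, all but Irf4, beside 67.9% of all genes in either direction and 40.2% as lower in that fit.

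Between the bleo groups, 5 of 8 genes were higher in Pear1-/- bleo than in WT bleo, and they were the 5 genes that had fallen in WT bleo. Jchain was 7.81-fold, Derl3 4.08-fold, Mzb1 2.81-fold, Tnfrsf17 2.74-fold and Pou2af1 1.65-fold higher in mean CPM. This count stands beside 46.1% of all genes that passed in either direction, 22.1% as higher and 24% as lower, and the median log2 fold change was 1.08 beside -0.01 over all genes. It was 5 under each of the 20 other settings and left-out libraries tried, while the share of all genes that passed ran from 19.2% with no filter on low counts to 66% with the 2 groups alone, and from 31.9% to 49.2% over the 12 fits without a library. The comparison shares the WT bleo libraries with the first and the Pear1-/- bleo libraries with the second, so the 3 are not independent of each other.

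Between the vehicle groups, edgeR called none of the 8 genes, although 6 had an unadjusted p under 0.05, and DESeq2 and limma also called 0. Of all genes, 7.24% passed in edgeR in either direction, 1.95% as higher and 5.29% as lower. In DESeq2 8.52% of all genes passed, and in limma 4.89% with a pseudocount of 1 and 2.82% with 0.5. With shares this low, a count of 0 is no result about the 8. The log2 fold changes of Pear1-/- vehicle against WT vehicle ran from -0.12 for Irf4 to 0.93 for Derl3, with a median of 0.44 beside -0.004 over all genes. Without WT vehicle replicate 2, 7 of 8 genes passed as higher in Pear1-/- vehicle, all but Irf4, beside 55.3% of all genes in either direction and 25.5% as higher, and the median of the 8 was 0.87 beside -0.03 over all genes. Leaving out any other library gave 0, but without any 1 of the other 5 vehicle libraries 0 of all genes passed, so that the 0 says nothing about the 8. With a bleo library left out, 4.84% to 5.22% of all genes passed.

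The size of the bleo effect was then compared between the genotypes by the interaction term, which subtracts the log2 fold change in WT from that in the libraries labelled Pear1-/-. Jchain (2.38, standard error 0.29, adjusted p = 2.54e-04) and Tnfrsf17 (0.99, standard error 0.37, adjusted p = 0.0465) passed, 2 of 8 genes beside 37.1% of all genes in either direction, 17.8% with a positive term and 19.3% with a negative one. Jchain passed without any 1 of the 12 libraries, whereas Tnfrsf17 lost the call without WT vehicle replicate 2 and without each library of the other groups, 10 of the 12 in all, with adjusted p of up to 0.213. Without WT vehicle replicate 2, 4 genes passed, beside 46.4% of all genes in that fit. These were Jchain (1.98) and Mzb1 (0.34), with positive terms, and Prdm1 (-0.95) and Tnfrsf13b (-0.70), with negative ones.

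**Figure D1:**
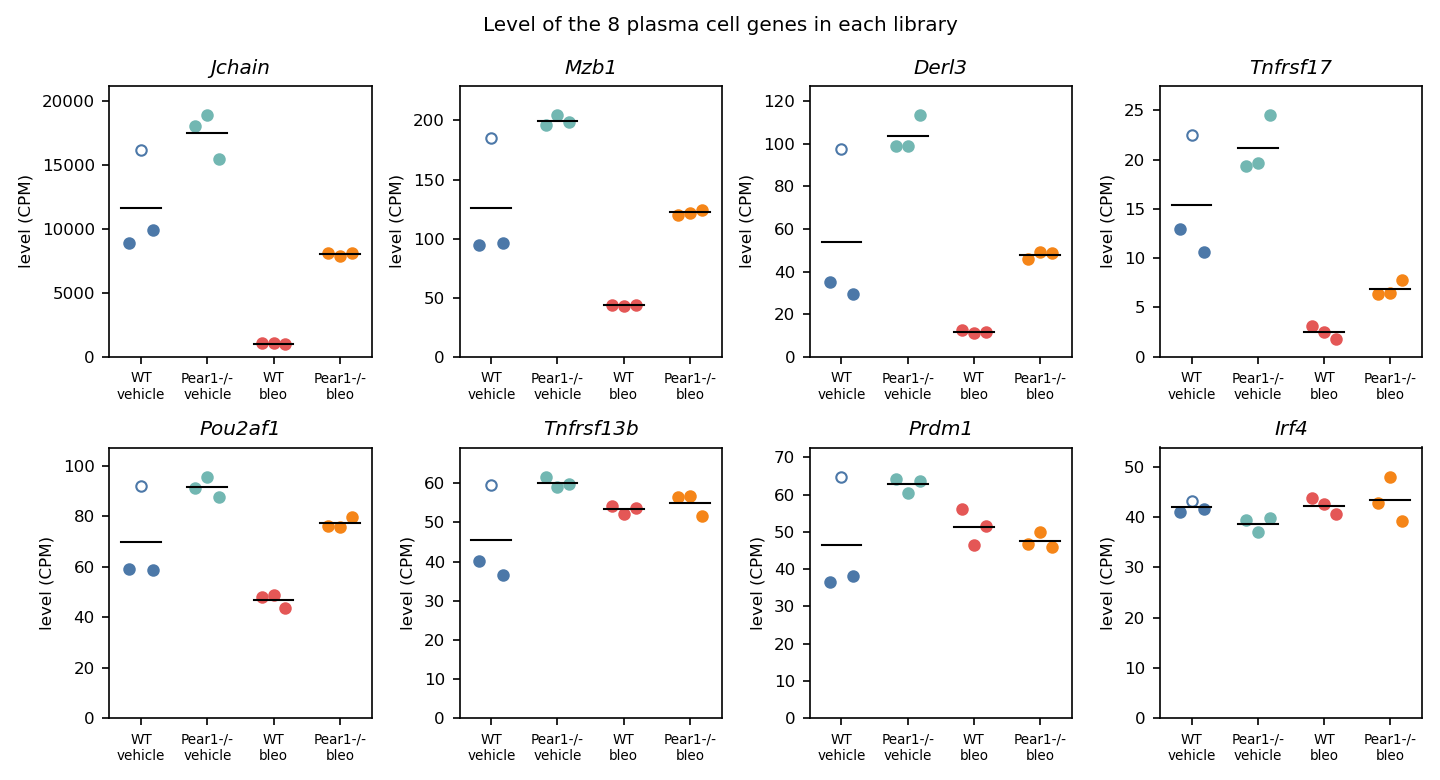
Level of each of the 8 genes in CPM (y axis, linear, from 0) in the 12 libraries by group (x axis). Points are libraries, bars are group means, and the open point is WT vehicle replicate 2, which lies above the other WT vehicle libraries for all 8 genes. Jchain, Mzb1, Derl3 and Tnfrsf17 are lowest in WT bleo, whereas Irf4 lies between 37.0 and 48.0 CPM in every library.

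Jchain (ENSMUSG00000067149, GRCm38 chr5:88519809-88527891, minus strand) was by far the most abundant of the 8. Its level was 8920.0, 16216 and 9885 CPM in the 3 WT vehicle libraries and 18061, 18916 and 15502 CPM in the libraries labelled Pear1-/- vehicle. In WT bleo it was 1046, 1059 and 989 CPM and in Pear1-/- bleo 8148, 7888 and 8109.8 CPM. Neither bleo group overlapped the vehicle group of its genotype, and every Pear1-/- bleo library lay below every WT vehicle library as well. In edgeR, WT bleo differed from WT vehicle by -3.50 in log2 units (standard error 0.22, adjusted p = 8.97e-07), and the same treatment in Pear1-/- gave -1.12 (standard error 0.20, adjusted p = 0.00119). Against WT bleo, Pear1-/- bleo stood at 2.96 (standard error 0.21, adjusted p = 5.18e-06). Without WT vehicle replicate 2 the fall in WT was -3.12, so WT vehicle replicates 1 and 3 alone were still 9.12-fold above WT bleo. An exact two-sided permutation test over 3 against 3 libraries cannot go below 0.1 and gave 0.1 here.

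In the WT groups, Jchain alone made up 1.21% ± 0.314 of all counted reads with vehicle and 0.102% ± 0.00384 with bleo (SD, n = 3). In the Pear1-/- groups these shares were 1.67% ± 0.192 and 0.799% ± 0.0170. Of the reads of the 8 genes, Jchain held at least 95.1% in every library outside WT bleo, and between 80.0% and 81.1% in WT bleo. Per kilobase of annotated exon, the mean level in WT vehicle was 4638 CPM for Jchain and 103 CPM for Mzb1, then 27.4 for Pou2af1, 27.0 for Derl3, 18.9 for Tnfrsf17, 16.0 for Tnfrsf13b, 8.54 for Irf4 and 8.34 for Prdm1. The ranges over libraries overlapped for the neighbours Pou2af1 and Derl3, Derl3 and Tnfrsf17, Tnfrsf17 and Tnfrsf13b, and Irf4 and Prdm1. In WT bleo the order changed, with Jchain at 409.7 and Mzb1 at 35.8 CPM per kilobase, followed by Tnfrsf13b at 18.8, Pou2af1 at 18.4, Prdm1 at 9.20 and Irf4 at 8.62, and with Derl3 at 5.87 and Tnfrsf17 at 3.07 at the foot. There the ranges over libraries overlapped for Tnfrsf13b and Pou2af1, and for Prdm1 and Irf4, so their order within each pair is not settled.

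Mzb1 (ENSMUSG00000024353, GRCm38 chr18:35647267-35649367, minus strand), a chaperone-like protein of the endoplasmic reticulum in antibody-secreting and marginal zone B cells, had its group means in the same order as Jchain, with a narrower range. The place of WT vehicle above Pear1-/- bleo in that order rests on WT vehicle replicate 2. Mzb1 was at 94.9, 185 and 96.7 CPM in WT vehicle and at 196, 205 and 199 CPM in Pear1-/- vehicle. After bleo it was at 43.9, 42.9 and 43.7 CPM in WT and at 120.3, 121 and 125 CPM in Pear1-/-. The WT bleo libraries lay below all others, and Pear1-/- bleo lay between the 2 low libraries and the 1 high library of WT vehicle. The log2 fold change with bleo was -1.53 (standard error 0.23, adjusted p = 2.27e-04) in WT, and -1.07 without WT vehicle replicate 2, against -0.71 (standard error 0.22) in Pear1-/-. Its exons share 695 bases with those of another gene model on the same strand, SPATA24 (ENSMUSG00000117874), which has no row in the deposited tables, so how such reads were assigned is not known.

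Derl3 (ENSMUSG00000009092, GRCm38 chr10:75893413-75895941, plus strand), a derlin that moves misfolded proteins out of the endoplasmic reticulum, had the widest spread within WT vehicle. The libraries were at 34.9, 97.2 and 29.4 CPM there, at 98.7, 98.9 and 113 CPM in Pear1-/- vehicle, at 12.5, 11.1 and 11.5 CPM in WT bleo and at 45.7, 49.0 and 48.6 CPM in Pear1-/- bleo. WT vehicle replicate 2 was 3.03-fold above the mean of replicates 1 and 3, more than for any other of the 8 genes. The log2 fold change with bleo was -2.21 in WT (standard error 0.45, adjusted p = 0.0022) and was -1.38 (standard error 0.12) without that library. For Pear1-/- bleo against WT bleo, which compares no WT vehicle library, it was 2.03 (standard error 0.45, adjusted p = 0.00582). With replicates 1 and 3 alone as WT vehicle, the level in Pear1-/- bleo was above WT vehicle for Derl3, Mzb1 and Pou2af1, and below it for Jchain and Tnfrsf17.

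Of the receptors, Tnfrsf17 (ENSMUSG00000022496, GRCm38 chr16:11313812-11320074, plus strand), the APRIL and BAFF receptor on which long-lived plasma cells depend, had the lowest CPM of the 8, though not per kilobase in the vehicle groups. It was at 13.0, 22.5 and 10.6 CPM in WT vehicle, 19.3, 19.6 and 24.5 CPM in Pear1-/- vehicle, 3.12, 2.54 and 1.84 CPM in WT bleo and 6.32, 6.49 and 7.78 CPM in Pear1-/- bleo. The WT bleo values rest on only 16 to 30 counts per library, against 63 to 73 in Pear1-/- bleo and at least 82 in the vehicle libraries. The 4 groups kept apart except for the vehicle groups, which overlapped. Its log2 fold change with bleo was -2.62 in WT (standard error 0.28, adjusted p = 4.42e-07) and -1.62 in Pear1-/- (standard error 0.23, adjusted p = 1.20e-05). The first became -2.15 without WT vehicle replicate 2.

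Tnfrsf13b (ENSMUSG00000010142, GRCm38 chr11:61126755-61149372, plus strand), the sister receptor TACI carried by mature B cells as well as plasma cells, did not follow Tnfrsf17. Its level was 40.1, 59.6 and 36.6 CPM in WT vehicle, 61.7, 59.0 and 59.8 CPM in Pear1-/- vehicle, 54.2, 52.0 and 53.8 CPM in WT bleo and 56.4, 56.7 and 51.7 CPM in Pear1-/- bleo. The bleo groups overlapped each other, and WT vehicle replicate 2 alone of its group reached the level of Pear1-/- vehicle. The log2 fold change of WT bleo against WT vehicle was 0.23 (adjusted p = 0.124), and without WT vehicle replicate 2 it was 0.55 and passed (adjusted p = 9.29e-08). In Pear1-/- it was -0.13 (adjusted p = 0.366).

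Per 100 reads of Tnfrsf13b, the WT groups held 33.1 ± 4.44 reads of Tnfrsf17 with vehicle and 4.69 ± 1.18 with bleo (SD, n = 3). The Pear1-/- groups held 35.2 ± 5.11 and 12.6 ± 2.15. Such a ratio is taken within a library and does not depend on its scaling, and WT vehicle replicate 2 held the highest value of its group. The 3 WT vehicle libraries ranged from 29.0 to 37.8, the 3 Pear1-/- vehicle libraries from 31.3 to 41.0, and both bleo groups lay below them without overlap.

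Of the transcription regulators, Pou2af1 (ENSMUSG00000032053, GRCm38 chr9:51213708-51240080, plus strand) changed least among the 5 genes that fell in WT. Its level was 59.1, 92.0 and 58.8 CPM in WT vehicle, 91.2, 95.7 and 87.8 CPM in Pear1-/- vehicle, 48.0, 48.8 and 43.6 CPM in WT bleo and 76.3, 75.6 and 79.7 CPM in Pear1-/- bleo. The 3 WT bleo libraries were the lowest of all 12. Its log2 fold change with bleo was -0.58 in WT (standard error 0.13, adjusted p = 0.00122) and -0.26 without WT vehicle replicate 2 (adjusted p = 0.00237). Against WT bleo, Pear1-/- bleo stood 0.72 higher in log2 units (standard error 0.13, adjusted p = 3.54e-04), while the comparison with Pear1-/- vehicle gave -0.25 (adjusted p = 0.107).

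Prdm1 (ENSMUSG00000038151, GRCm38 chr10:44437177-44528501, minus strand) encodes Blimp-1, the repressor that plasma cells require for secretion. It was at 36.6, 64.8 and 38.1 CPM in WT vehicle, 64.3, 60.5 and 63.7 CPM in Pear1-/- vehicle, 56.0, 46.5 and 51.5 CPM in WT bleo and 46.8, 50.1 and 45.8 CPM in Pear1-/- bleo. WT bleo lay inside the range of WT vehicle and overlapped Pear1-/- bleo, while Pear1-/- bleo lay below Pear1-/- vehicle. The log2 fold change with bleo was 0.14 in WT (adjusted p = 0.501) and became 0.53 without WT vehicle replicate 2 (adjusted p = 5.16e-07). In Pear1-/- it was -0.40, which missed the threshold in edgeR (adjusted p = 0.0542) and passed in DESeq2 (adjusted p = 0.0209).

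Irf4 (ENSMUSG00000021356, GRCm38 chr13:30749226-30766976, plus strand), the factor that must stay high for a plasma cell to survive, was the most even of the 8. It was at 41.0, 43.1 and 41.6 CPM in WT vehicle, 39.3, 37.0 and 39.7 CPM in Pear1-/- vehicle, 43.7, 42.6 and 40.6 CPM in WT bleo and 42.8, 48.0 and 39.1 CPM in Pear1-/- bleo. It passed in none of the comparisons, with log2 fold changes between -0.12 and 0.16 and adjusted p between 0.0956 and 0.90. None of the other 7 genes had a smaller gap between WT vehicle replicate 2 and the other WT vehicle libraries, at 1.04-fold.

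**Figure D2:**
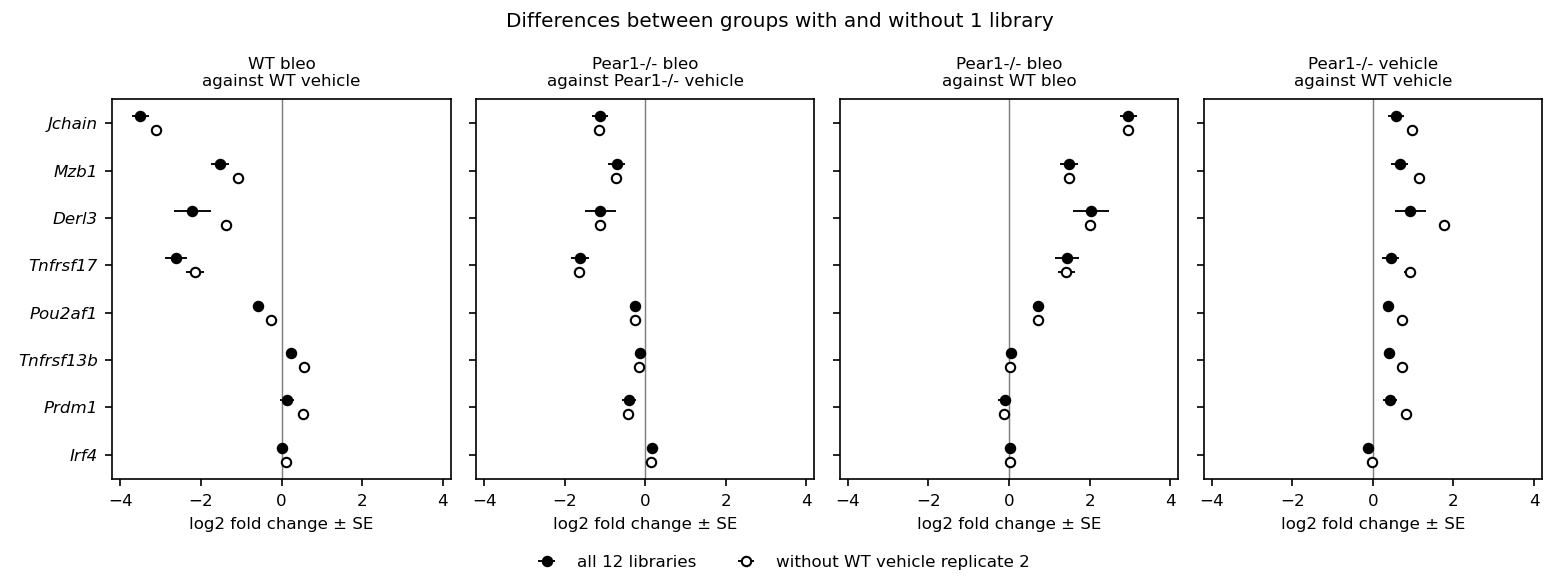
Log2 fold change with its standard error (x axis) of the 8 genes (y axis) in the 4 comparisons, from all 12 libraries (filled) and without WT vehicle replicate 2 (open); where no bar shows, the standard error is smaller than the symbol. The open symbols shift to the right in both comparisons that use WT vehicle, from 0.58 to 0.97 for Jchain between the vehicle groups, and move little in the other 2.

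The rest of the plasma cell programme was described from a list of 28 genes for secretion, folding and homing. In WT bleo, 19 of the 28 fell, 3 rose and 6 did not pass, with a median log2 fold change of -0.53, beside 36.5% of all genes that fell and 31.4% that rose. The largest falls were those of Ccr10, the receptor that draws IgA plasma cells to mucosal surfaces (-3.75, adjusted p = 1.62e-12), Bhlha15 (Mist1), a factor of secretory cells (-3.53, adjusted p = 3.46e-10), and Cd28 (-2.15). Xbp1, which drives the secretory expansion, fell by 1.01 on the log2 scale (adjusted p = 8.05e-07), from 629 ± 150.2 to 312 ± 5.41 CPM, while Sdc1 (CD138), the surface marker of plasma cells that epithelium and fibroblasts also carry, was at -0.24 and did not pass (adjusted p = 0.0678). The 3 that rose were Slamf7 (1.41), Tent5c (0.97) and Cd38 (0.72), of which Slamf7 and Cd38 are also carried by other leukocytes. Without WT vehicle replicate 2 the counts were 17 lower and 4 higher, beside 44.7% and 31.7% of all genes in that fit, and the median was -0.35, with Ccr10 at -3.63, Bhlha15 at -3.18, Xbp1 at -0.73 and Sdc1 at 0.03.

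In the libraries labelled Pear1-/-, 16 of the 28 fell with bleo, 4 rose and 8 did not pass, with a median of -0.39, beside 33.1% of all genes that fell and 29.1% that rose. Pim2, a survival kinase (-2.40), Cd28 (-1.61) and Bhlha15 (-1.52) fell most, and Ccr10 fell by 0.85 on the log2 scale. Sdc1 rose by 0.73, as did Fkbp11 (0.53) and Cd38 (0.48). Between Pear1-/- bleo and WT bleo, 18 were higher, 3 lower and 7 did not pass, with a median of 0.58, beside 22.1% of all genes that were higher and 24% that were lower. The highest were Ccr10 (3.11, adjusted p = 1.87e-10), with 15.8 ± 0.66 CPM against 1.80 ± 0.528 CPM, Bhlha15 (2.53) and Ly6k (1.66), and the 3 lower ones were Slamf7 (-1.23), Tent5c and Pim2 (-0.54). In that comparison the median of 13 fibroblast markers was much the same, at 0.57, with 6 higher and 1 lower. The 28 include genes for secretion and folding, and the part of other secreting cells in their values was not tested. For the difference between the genotypes in the bleo effect, 11 of 28 passed with a positive term, led by Ccr10 (2.90), Bhlha15 (2.01) and Fkbp11 (1.34), and 4 with a negative term, beside 17.8% and 19.3% of all genes. Without WT vehicle replicate 2, 10 had a positive and 10 a negative term, beside 20.4% and 26% of all genes in that fit, with Ccr10 (2.76), Bhlha15 (1.64) and Fkbp11 (1.08) still the highest. Between the vehicle groups, 5 of 28 were higher in Pear1-/-, Pim2 (0.71), Herpud1 (0.44) and Edem1 (0.41) leading, beside 1.95% of all genes, and without WT vehicle replicate 2 it was 24, beside 25.5%. Without any 1 of the other 5 vehicle libraries, 0 of all genes passed, and so 0 of the 28.

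**Figure D3:**
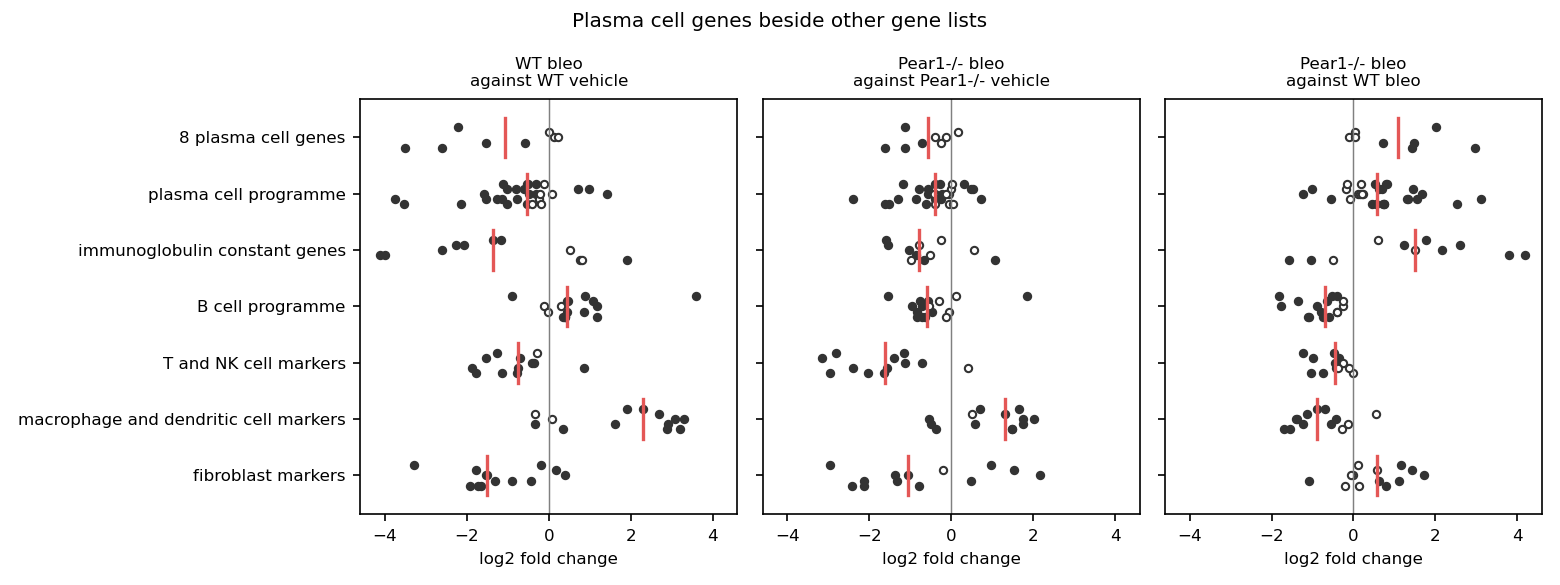
Log2 fold changes (x axis) of the genes of 7 lists (y axis) in 3 comparisons; filled points passed at an adjusted p under 0.05, open ones did not, and red bars are medians. In WT bleo the medians of the 8 genes (-1.06), of the plasma cell programme (-0.53) and of the immunoglobulin constant genes (-1.36) lie below 0. So do those of the fibroblast markers (-1.50) and of the T and NK cell markers (-0.76). The medians of the B cell programme (0.44) and of the macrophage and dendritic cell markers (2.31) lie above 0.

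The constant genes of the immunoglobulin chains moved in the same comparisons in both directions. In WT bleo, 7 of 11 fell and 2 rose, beside 36.5% and 31.4% of all genes. Igha, the heavy chain of IgA, fell by 4.13 on the log2 scale (adjusted p = 1.90e-07) from 35292 ± 11575 to 2020.1 ± 3.14 CPM, and Igkc, the kappa light chain, fell by 2.60, whereas Ighm, the heavy chain of IgM, rose by 1.91 (adjusted p = 2.25e-05) from 1527 ± 471 to 5732 ± 74.6 CPM. In Pear1-/-, 5 fell and 1 rose, beside 33.1% and 29.1% of all genes, with Igha at -0.86 and Ighm at 1.06. Between the bleo groups, 6 were higher in Pear1-/- and 2 lower, beside 22.1% and 24% of all genes, with Igha at 3.79 and Ighm at -1.57. In WT bleo, 7 fell and 4 rose when WT vehicle replicate 2 was left out, beside 44.7% and 31.7% of all genes in that fit, and the median of the 11 went from -1.36 to -0.63, with Igha at -3.76, Igkc at -2.18 and Ighm at 1.74. The heavy chain of IgE was at 3 counts or fewer in each WT bleo library. Per 100 reads of Igha, the WT groups held 4.86 ± 2.46 reads of Ighm with vehicle and 284 ± 3.62 with bleo, and the Pear1-/- groups held 1.82 ± 0.0557 and 6.89 ± 0.0873.

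Genes of B cells before plasma cell differentiation were described from a list of 16. In WT bleo, where Jchain, Mzb1, Derl3, Tnfrsf17 and Pou2af1 were lowest, 12 of the 16 rose, 1 fell (Ebf1, -0.90) and 3 did not pass, beside 31.4% and 36.5% of all genes, with a median of 0.44. Cd72 (3.59), which macrophages also express, Ighd (1.19) and Fcer2a (1.18) rose most, Ms4a1 (CD20) by 0.87 and Pax5 by 0.39, while Cd79a was at 0.29 and did not pass (adjusted p = 0.288). Leaving out WT vehicle replicate 2 gave 14 that rose and 1 that fell, beside 31.7% and 44.7% of all genes in that fit, with a median of 0.76, and Cd79a then passed at 0.74. In the libraries labelled Pear1-/-, 10 of the 16 fell and 1, Cd72, rose, beside 33.1% and 29.1% of all genes. Between Pear1-/- bleo and WT bleo, 12 were lower and none higher, beside 24% and 22.1% of all genes, among them Cd72 (-1.81), Fcer2a (-1.77), Cr2 (-1.35) and Pax5 (-1.11). Summed over the list, the WT libraries lay at 764 to 1175 CPM with vehicle and 1570.3 to 1591 with bleo, and those labelled Pear1-/- at 1154 to 1230 and 885 to 919.

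Of the ligands and other receptors of the axis, Tnfsf13b (BAFF) fell with bleo in both genotypes, by 0.72 in WT and by 1.19 in Pear1-/- on the log2 scale, and was lower in Pear1-/- bleo than in WT bleo (-0.63, adjusted p = 5.99e-07). Its level in WT was 107 ± 4.04 CPM with vehicle and 64.8 ± 1.55 with bleo, and in Pear1-/- it was 95.2 ± 5.22 and 41.8 ± 1.56. Tnfsf13 (APRIL), at under 3 CPM in every library, rose in WT (1.28, adjusted p = 0.00288), and Tnfrsf13c (BAFF receptor) rose by 0.58 there. In WT bleo 4 of the 5 genes of the axis thus rose and 1 fell, beside 31.4% of all genes that rose and 36.5% that fell, and in Pear1-/- 2 fell, beside 33.1% of all genes. The counts in WT bleo were the same without WT vehicle replicate 2, beside 31.7% of all genes that rose and 44.7% that fell in that fit, with Tnfsf13b at -0.68, Tnfsf13 at 1.24 and Tnfrsf13c at 1.02.

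Markers of other leukocytes moved in the same comparisons, and their counts stand beside 31.4% of all genes that rose and 36.5% that fell in WT bleo, 29.1% and 33.1% in Pear1-/-, and 22.1% higher and 24% lower between the bleo groups. All 6 pan-leukocyte markers rose in WT bleo (median 1.47), with a summed level of 1351 to 1936 CPM in WT vehicle and 4659 to 4796 in WT bleo, against 1907 to 2013 and 2416 to 2464 in the Pear1-/- groups. Likewise 10 of 13 macrophage and dendritic cell markers rose (median 2.31), with summed levels of 2080.3 to 2662 CPM in WT vehicle and 12550 to 12721 CPM in WT bleo. Between the bleo groups, all 6 pan-leukocyte markers and 10 of the 13 macrophage and dendritic cell markers were lower in Pear1-/-. Of 12 T and NK cell markers, 10 fell in WT bleo (median -0.76) and 11 in Pear1-/- bleo (median -1.61). Of 10 markers of plasmacytoid dendritic cells, which also use several plasma cell genes, Klk1 did not pass the filter and was at 7 counts or fewer in each library, and of the 9 tested 3 rose and 2 fell in WT bleo, Siglech falling by 1.08 from 4.82 ± 1.35 to 2.24 ± 0.598 CPM. No marker of these lists other than Klk1 was at or under 3 counts in all libraries of a group. Of 13 fibroblast markers, 11 fell and 2 rose in WT bleo (median -1.50), with a summed level of 18417 to 20026 CPM in WT vehicle and 13119 to 13242 CPM in WT bleo. In Pear1-/-, 8 of the 13 fell with bleo and 4 rose (median -1.05), while the sum went from 19817 to 20611 CPM with vehicle to 33293 to 34287 CPM with bleo, since collagen genes such as Col1a1 (3537 ± 235 and 15996 ± 309 CPM) make up much of it. Of 6 endothelial markers 5 fell in WT bleo (median -0.79), and of 7 epithelial markers 5 fell and 2 rose (median -0.77). With WT vehicle replicate 2 left out, 9 T and NK cell markers and 4 endothelial markers fell in WT bleo and 11 macrophage and dendritic cell markers rose, and the counts of the pan-leukocyte, plasmacytoid dendritic cell, fibroblast and epithelial lists were as given, beside 44.7% of all genes that fell and 31.7% that rose in that fit. The part of these other cell types in the values of the 8 genes was not tested.

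Ratios within a library set the 8 genes against each other and against immunoglobulin genes. Per 100 reads of Igha, the WT groups held 33.0 ± 2.20 reads of Jchain with vehicle and 51.0 ± 1.93 with bleo, and the Pear1-/- groups held 34.6 ± 4.36 and 28.8 ± 0.918. Per 100 reads of Jchain, there were 1.06 ± 0.0817 reads of Mzb1 in WT vehicle and 4.22 ± 0.185 in WT bleo, while with Pear1-/- it was 1.15 ± 0.114 and 1.52 ± 0.0355. In both ratios the WT bleo libraries lay above all others, and the 2 vehicle groups overlapped. Derl3 against Mzb1 ran the other way, with 26.9 ± 1.36 reads per 100 in WT bleo and between 30.4 and 57.1 in the other libraries.

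**Figure D4:**
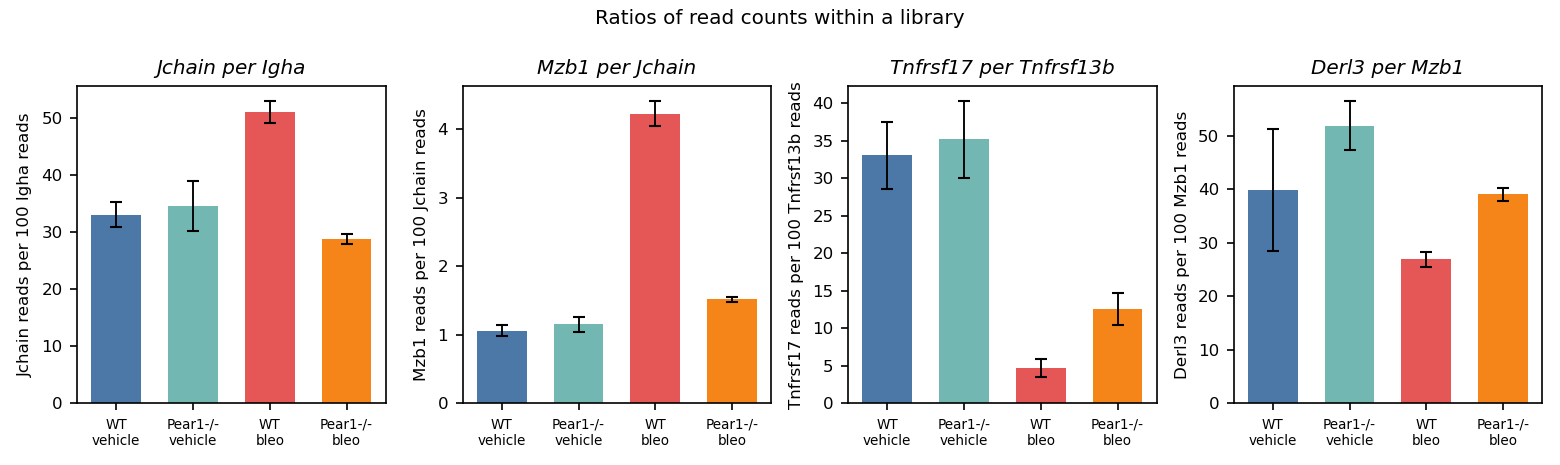
Reads of one gene per 100 reads of another in the same library (y axis, linear, from 0) by group (x axis), with bars for the mean and whiskers for the SD of 3 libraries. WT bleo is the highest group for Jchain per Igha (51.0) and Mzb1 per Jchain (4.22) and the lowest for Tnfrsf17 per Tnfrsf13b (4.69) and Derl3 per Mzb1 (26.9).

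The search covered 10453 genes averaging 3 or more in log2 CPM, and the genes whose log2 CPM over the 12 libraries was most like that of each member were found by Pearson r. The libraries fall into 4 groups and share their scaling, so that r mostly restates the group means, and it is given as a description. For Mzb1 they were Ighv1-85, Ighv14-1 and Derl3 (r = 0.995 for the last), for Derl3 they were Igkv15-103, Slpi and Mzb1, for Pou2af1 3 kappa V genes (Igkv6-23, Igkv1-135 and Igkv4-80), and for Jchain Peg3, Igkv4-61 and Igkc (r = 0.995 for the last). For Tnfrsf17 they were Acbd4, Adamts5 and Kcnj8, none of them an immunoglobulin gene. Tnfrsf13b was most like Igkv12-46, Dhx15 and Igkv4-58, and Prdm1 most like Csf3r, the neutrophil colony-stimulating factor receptor (r = 0.971), Nfkbia and Syf2. For Irf4 no gene came above 0.823 (Nckap5l, Gprc5a and Mthfd1).

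Promoters of 7 of the 8 genes, all but Mzb1, were read from RefSeq (GRCm38.p6), and those of Jchain, Derl3 and Pou2af1 are shown because these genes fell in WT and each window holds a match to a motif of a plasma cell or B cell factor. Each line runs 5′ to 3′ on the strand of the gene, from 180 bases before to 20 bases after the start of the transcript, with the match in capitals.
Jchain, chr5:88527878-88528077, minus strand: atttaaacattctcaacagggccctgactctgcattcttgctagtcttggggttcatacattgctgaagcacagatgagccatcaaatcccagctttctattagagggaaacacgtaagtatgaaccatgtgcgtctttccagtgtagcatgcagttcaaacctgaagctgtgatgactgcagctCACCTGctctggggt
Derl3, chr10:75893218-75893417, plus strand: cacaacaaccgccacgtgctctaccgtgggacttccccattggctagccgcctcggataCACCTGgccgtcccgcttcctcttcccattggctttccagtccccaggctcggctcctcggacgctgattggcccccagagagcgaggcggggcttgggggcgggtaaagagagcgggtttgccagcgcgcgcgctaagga
Pou2af1, chr9:51213510-51213709, plus strand: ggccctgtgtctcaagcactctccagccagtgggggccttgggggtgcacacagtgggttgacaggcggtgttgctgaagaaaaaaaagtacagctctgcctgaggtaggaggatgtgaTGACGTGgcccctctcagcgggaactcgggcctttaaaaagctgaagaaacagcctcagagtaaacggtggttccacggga
In Jchain and Derl3 the capitals mark the E-box CAGGTG on the opposite strand, the site of E2A-like factors, which in Jchain lies 5 bases past the start, and in Pou2af1 they mark TGACGTG, the core of the XBP1 element. The 7 promoters were searched from 250 bases before to 50 after the start, on both strands. The E-box was in 3 of the 7, with Prdm1 as the third, and in 20.2% of all 32817 promoters in the table, and the XBP1 core was in 1 of 7 and in 2.01% of all. The RefSeq start used for Prdm1 lies inside the span of the gene given above. The octamer ATGCAAAT, which Pou2af1 acts through, was in 0 of the 7 windows and in 1.74% of all promoters, and AGTGAAAG, the core that PRDM1 and IRF factors bind, in 0 of 7 and in 1.32%. A match here is only a match of letters.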

How the data were processed

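Pdgfra+ lung cells were sorted by flow cytometry and their RNA was sequenced. Per the labels and methods, SMART-Seq cDNA was sequenced on a HiSeq instrument and the authors aligned reads to GRCm38 with HISAT2; the counting program is not given in the sources used here. The authors deposited raw read counts per gene and a normalized table, whose signal values equal, in 100% of genes, the count divided by a DESeq2 size factor (tolerance of 1 part in 10 to the sixth). Genes without enough reads (filterByExpr of edgeR 4.0.16 in R 4.3.3) were dropped, leaving 17418 of 40760. Counts were TMM-scaled and tested by edgeR's quasi-likelihood test over all 12 libraries, with Benjamini-Hochberg adjustment, and a gene passed at an adjusted p under 0.05. A standard error is the log2 fold change divided by the root of its F statistic. DESeq2 1.42.0, limma 3.58.1 on log2(normalized + 1) and (+ 0.5), other scalings, no filter, the 2 groups alone, a replicate block and each library left out were alternatives. A count of 3 corresponds to 0.287 to 0.448 CPM over the libraries when CPM is taken on the total counted reads, without TMM scaling. How libraries map to mice is not stated, so p-values measure the spread between libraries, which may be technical.

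The 8 genes, the gene lists and the tests were chosen with earlier results of these data known. The text names all 8, a set of lineage genes fixed by name (1 of them is not reported here), up to 3 genes that rose and 3 that fell most in a list per comparison, and the 3 nearest genes to each of the 8. The code of the fit was run on simulated counts with few changed genes, the same spread for all genes and no library that stood apart. That setting is simpler than these data, so the run bears on the code and not on the calls above.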

Additional observations from a re-analysis of the deposited data

Results flagged for a closer look

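The change with bleo differed between WT and the libraries labelled Pear1-/- for 2 of the 8 genes, by the interaction term of the edgeR fit, beside 37.1% of all genes, so that the count is no result about the 8. For Jchain the term was 2.38 in log2 units (adjusted p = 2.54e-04), with every bleo library below every vehicle library in both genotypes, and it ran from 1.98 to 2.54 when any 1 of the 12 libraries was left out, passing each time. For Tnfrsf17 the term was 0.99 (adjusted p = 0.0465), again with every bleo library below every vehicle library in both genotypes. It became 0.51 without WT vehicle replicate 2 (adjusted p = 0.108) and passed in only 2 of the 12 fits without a library. The term of Tnfrsf17 rests on 16 to 30 counts per WT bleo library.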

How the results depend on the processing

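Of 792 values recomputed under alternatives, 716 kept their direction and their side of the threshold, 39 passed newly, 28 no longer passed and 9 changed sign. Between the vehicle groups, where 0 of the 8 genes passed, 4 passed with no filter on low counts (13.9% of all genes) and 2 with the replicate block (7.21%), and for the interaction, where 2 passed, the counts were 4 (16.1%) and 1 (35.8%). No pairing of the libraries by replicate number was seen. Same-numbered libraries had deviations that correlated by -0.16 to 0.0997 over 18 pairs, against -0.147 to 0.151 for other pairs. Deviations from the means of such small groups cannot exclude a pairing, and the block is given only here. Without 1 library, the number of the 8 genes that passed was 5 to 7 for WT bleo against WT vehicle, 2 to 7 for Pear1-/- bleo against Pear1-/- vehicle, 5 in each fit for Pear1-/- bleo against WT bleo, 0 to 7 between the vehicle groups and 1 to 4 for the interaction, the upper ends being those without WT vehicle replicate 2. The shares of all genes that passed in these fits ran, in the same order, from 63.7% to 76.4%, 50.5% to 67.9%, 31.9% to 49.2%, 0% to 55.3% and 26.6% to 46.4%. All values that changed sign were small and did not pass in the fit of all libraries. Irf4 in WT bleo against WT vehicle went from 0.01 to -0.0166 with RLE size factors, -0.135 with upper-quartile scaling, -0.0167 with DESeq2 and -0.0173 with the 2 groups alone. Prdm1 in that comparison went from 0.14 to -0.00412 with upper-quartile scaling and, without 1 library, lay between -0.00269 (WT vehicle replicate 1) and 0.53 (WT vehicle replicate 2). Irf4 in Pear1-/- bleo against WT bleo went from 0.04 to -0.00557 without WT bleo replicate 3 and, without 1 library, lay between -0.0573 (Pear1-/- bleo replicate 2) and 0.0936 (Pear1-/- bleo replicate 3). The Pou2af1 interaction, 0.34 in all libraries, lay between -0.00276 (without WT vehicle replicate 2) and 0.45 (without WT vehicle replicate 3). The cause was not tested. Over all genes, 11834 of 17418 (67.9%) passed in WT bleo against WT vehicle and 19714 of 40760 (48.4%) with no filter. Between the vehicle groups 1261 (7.24%) passed, against 5676 (13.9%) with no filter, 492 with limma and a pseudocount of 0.5, 852 with limma and a pseudocount of 1, and 0 with the 2 groups alone, where 3189 had an unadjusted p under 0.05. Upper-quartile scaling moved the median log2 fold change of all genes in WT bleo against WT vehicle from -0.07 to -0.22, and, of the genes that passed between the vehicle groups, the share that was higher from 27.0% to 12.5%.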

Other observations

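The balance of Prdm1 and Irf4, the 2 regulators that stay on in plasma cells, was steady within 3 of the groups. Both are also found in T cells and myeloid cells, and the part of such cells in the ratio was not tested. Over the 12 libraries the Pearson r with Jchain was 0.22 for Prdm1 and -0.31 for Irf4. Per 100 reads of Irf4, the Pear1-/- groups held 162 ± 1.73 reads of Prdm1 with vehicle and 110.3 ± 6.51 with bleo (SD, n = 3), and WT bleo held 121 ± 10.6. In WT vehicle the ratio was 110.4 ± 34.6, with replicate 2 at 150.4 and the lowest library at 89.3. Tnfrsf17 per 100 reads of Mzb1 was 12.3 ± 1.36 in WT vehicle and 10.6 ± 1.51 in Pear1-/- vehicle, and both bleo groups were lower, at 5.75 ± 1.45 for WT and 5.61 ± 0.548 for Pear1-/-, with ranges that overlapped each other.

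Between the kappa light chain and Jchain the order of the groups was not that seen against Igha. Per 100 reads of Igkc there were 39.3 ± 2.47 reads of Jchain with vehicle and 20.9 ± 0.857 with bleo in WT, and 38.8 ± 5.43 and 36.2 ± 0.865 in Pear1-/-, so that WT bleo was lowest here and highest for Jchain per Igha.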
